A study of Mus musculus with 12 samples.

Results

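The genes described here act on procollagen between the ribosome and the fibril. Procollagen chains are hydroxylated on proline and lysine in the endoplasmic reticulum, folded into a triple helix with the help of a dedicated chaperone and of prolyl isomerases, and trimmed outside the cell by a proteinase that removes the C-terminal propeptide. Prolyl hydroxylation gives the helix its heat stability, lysyl hydroxylation prepares the sites of sugar addition and crosslinking, and propeptide removal lets fibrils assemble. In scarred lung these steps handle a larger flow of collagen, and fibroblasts are their main site. The set is a list of named genes, drawn up with earlier results of these data known, and holds 10: P4ha2, P4ha3, Plod1, Plod2, Plod3, Serpinh1, Bmp1, Pcolce, Pcolce2 and Fkbp10. Of these, 9 genes were paired with probe sets of their own, 15 probe sets in all, among 18194 genes and 45101 probe sets on the array. Fkbp10, which encodes the prolyl isomerase FKBP65, was not analysed here.

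Whole-lung RNA was taken from C57BL/6 mice at day 21 after an endotracheal injection and measured on 12 Affymetrix arrays, 3 per group. The groups were FIZZ2 knockout lungs after bleomycin, FIZZ2 knockout lungs after saline, wild type lungs after bleomycin and wild type lungs after saline. Bleomycin is a DNA-breaking drug that injures the lung and leaves scar, and FIZZ2 (RELM-beta, gene Retnlb) is a secreted protein of the resistin family. All lungs had been flushed with PBS, so every group shares the injection, the flush and the strain, and the labels give neither age nor sex nor the design of the knockout allele. Nothing in the labels says that replicates are separate animals, so a p-value here speaks of the scatter among these samples, which may be technical. Precision is limited by having 3 arrays in a group. Array medians lay between 5.58 and 5.68 on the log2 scale, and arrays of the same group correlated at 0.988 to 0.997 across probe sets (12 pairs of arrays, a description across features that are not independent). The 10 markers of lung epithelium and endothelium lay between percentiles 81.8 and 100 of the probe sets. Retnlb itself was dim on every array (log2 values from 3.49 to 4.13), so it gives no check of the genotype labels.

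A value below is a deposited log2 value of a probe set, called a log2 RMA value after the method the submitters' processing notes name, and a change is a difference of group means on that scale, given with its SE from limma (n = 3 arrays per group). A gene is represented by its brightest probe set unless another is named, and it is said to rise or fall where the Benjamini-Hochberg adjusted p over all 18194 genes was under 0.05. Levels are compared only within a probe set, never between genes.

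The first question was what bleomycin did to these genes in wild type lung. Of the 9 measured genes, 5 rose (P4ha3, Plod1, Plod3, Serpinh1 and Bmp1), 1 fell (Pcolce2) and 3 did not pass (P4ha2, Plod2 and Pcolce). Among all genes 27.7% were called in this comparison, 13.3% higher and 14.4% lower. The 3 bleomycin arrays were apart from the 3 saline arrays for 7 of the 9 genes, above them for 5 and below them for 2, where 40% of all genes were apart, 17.2% above and 22.8% below. The median change of the 9 genes was 0.41, against -0.04 over all genes. Their changes ran from -1.91 for Pcolce2 to 1.35 for P4ha3, so the set did not move as a block. In RNA from whole lung, more or fewer cells of a type and more or less RNA per cell cannot be told apart.

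**Figure D1:**
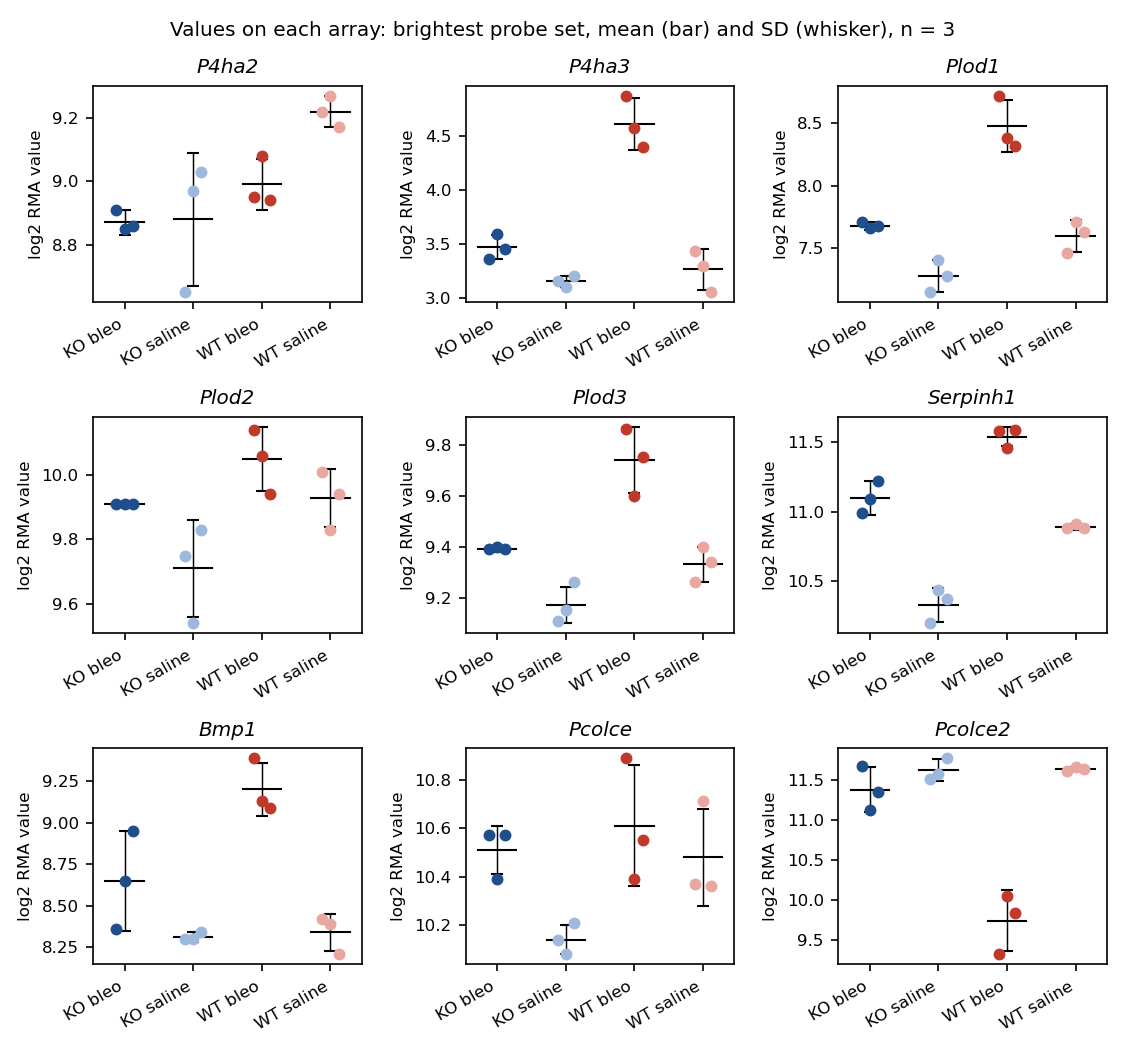
Log2 RMA values of the 9 measured genes on each of the 12 arrays (points; brightest probe set), with the mean and SD of each group of 3 arrays (KO, FIZZ2 knockout; WT, wild type; bleo, bleomycin; vertical axes differ between panels and do not start at 0). P4ha3 stood highest and Pcolce2 lowest on the 3 wild type bleomycin arrays, and all 3 knockout saline arrays of Serpinh1 lay below the 3 wild type saline arrays.

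The prolyl 4-hydroxylases are tetramers whose catalytic alpha subunits are encoded by the P4ha genes. P4ha3, the third of these subunits, had log2 values of 4.87, 4.57 and 4.40 in wild type bleomycin lungs, against 3.43, 3.29 and 3.05 in wild type saline lungs. All bleomycin arrays lay above all saline arrays, and the change was 1.35 ± 0.12 (SE, adjusted p = 6.6e-06). The saline values lay in the dim range of the array, as did the mean over all arrays (percentile 20.5), and were not shown to be above background. The measured change of P4ha3 is therefore given on the log2 scale without a fold, here and in the comparisons below. P4ha2, another alpha subunit, had 8.95, 9.08 and 8.94 in wild type bleomycin lungs, against 9.22, 9.27 and 9.17 in wild type saline lungs. Its bleomycin arrays lay below the saline arrays by a small step, and its change of -0.23 ± 0.10 did not pass (adjusted p = 0.0934; 95% interval -0.44 to -0.02). The call of P4ha2 turned on 1 array: it passed without knockout saline replicate 1 (adjusted p = 0.0389), which enters only through the shared estimate of the spread.

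The lysyl hydroxylases encoded by the 3 Plod genes differ in where they act: Plod1 on the helical part of the chain, Plod2 on the telopeptides that carry crosslinks, and Plod3 with an added sugar transferase activity. Plod1 had log2 values of 8.72, 8.38 and 8.32 in wild type bleomycin lungs, against 7.46, 7.71 and 7.63 in wild type saline lungs. It rose 1.83-fold (0.88 ± 0.11, adjusted p = 7.51e-05), and its groups were apart. Plod3 had 9.86, 9.60 and 9.75 in wild type bleomycin lungs, against 9.26, 9.40 and 9.34 in wild type saline lungs. Its 1.33-fold rise was the smallest among the 5 genes that rose (0.41 ± 0.08, adjusted p = 0.00221), and its groups did not overlap. Plod2 had 10.14, 10.06 and 9.94 in wild type bleomycin lungs, against 10.01, 9.83 and 9.94 in wild type saline lungs. Here the arrays of both groups overlapped, and the change of 0.12 ± 0.09 did not pass (adjusted p = 0.348). Its 95% interval, -0.07 to 0.31, lies below that of Plod1 (0.64 to 1.11) on the brightest probe sets only. On their other probe sets the wild type changes were 0.26 for Plod2 and 0.18 for Plod1, where that of Plod1 was dim. A difference between the 2 genes was not tested.

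Serpinh1 encodes HSP47, the collagen-specific chaperone that binds the folded procollagen helix. It had log2 values of 11.58, 11.46 and 11.59 in wild type bleomycin lungs, against 10.88, 10.91 and 10.88 in wild type saline lungs. The groups were tight and apart, with a 1.58-fold rise (0.66 ± 0.08, adjusted p = 9.75e-05). Bmp1 encodes the proteinase that cuts the C-propeptide and, as a longer splice form, mammalian tolloid. It had 9.39, 9.13 and 9.09 in wild type bleomycin lungs, against 8.42, 8.39 and 8.21 in wild type saline lungs. Its groups were apart, and it rose 1.82-fold (0.86 ± 0.13, adjusted p = 0.000321).

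The 2 procollagen C-proteinase enhancers, secreted proteins that bind the propeptide and speed its cleavage by BMP1, did not follow each other. Pcolce2 had log2 values of 9.32, 10.05 and 9.84 in wild type bleomycin lungs, against 11.62, 11.67 and 11.64 in wild type saline lungs. It fell by 1.91 on the log2 scale (SE 0.17, adjusted p = 5.63e-06), a 3.75-fold difference, with every bleomycin array more than a whole log2 unit under every saline array. Pcolce had 10.89, 10.39 and 10.55 in wild type bleomycin lungs, against 10.37, 10.71 and 10.36 in wild type saline lungs. These arrays overlapped, and the change of 0.13 ± 0.13 did not pass (adjusted p = 0.476; 95% interval -0.14 to 0.40). Its sign turned without wild type bleomycin replicate 1 (-0.01, adjusted p = 0.973). That array held the highest wild type bleomycin value of P4ha3, Plod1, Plod2, Plod3, Bmp1 and Pcolce and the lowest of Pcolce2. None of the 6 calls was lost when any of the 12 arrays was left out.

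The stretch before the transcription start is shown for 3 genes that moved in wild type lung, Plod1 and Serpinh1 upward and Pcolce2 downward, so that the letters around the start can be read beside the values. Each is the 250 bases before the start site in RefSeq (GRCm38.p6), written 5′ to 3′ on the strand of the gene; 7 of the 10 genes had an entry in the promoter table. Plod1 lies on the minus strand (chr4:147936777-147937026), Serpinh1 on the minus strand (chr7:99353240-99353489) and Pcolce2 on the plus strand (chr9:95637378-95637627). Capitals mark matches, on either strand, to 6 short motifs. The heat shock element core was searched as GAANNTTC. The hypoxia response core was searched as ACGTG. The CCAAT box was searched by its own letters, and the GC box as GGGCGG. The other two were the TATA box, searched as TATAAA, and a SMAD core, searched as CAGAC.
Plod1: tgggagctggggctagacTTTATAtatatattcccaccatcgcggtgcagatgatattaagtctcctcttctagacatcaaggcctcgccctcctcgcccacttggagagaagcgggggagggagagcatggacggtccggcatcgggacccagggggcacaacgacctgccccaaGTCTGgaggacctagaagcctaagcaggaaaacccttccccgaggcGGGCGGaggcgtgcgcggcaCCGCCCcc
Serpinh1: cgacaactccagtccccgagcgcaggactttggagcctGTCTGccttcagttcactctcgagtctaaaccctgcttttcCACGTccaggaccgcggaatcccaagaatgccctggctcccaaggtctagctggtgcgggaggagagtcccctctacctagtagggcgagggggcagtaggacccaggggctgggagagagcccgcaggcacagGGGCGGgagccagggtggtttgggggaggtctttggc
Pcolce2: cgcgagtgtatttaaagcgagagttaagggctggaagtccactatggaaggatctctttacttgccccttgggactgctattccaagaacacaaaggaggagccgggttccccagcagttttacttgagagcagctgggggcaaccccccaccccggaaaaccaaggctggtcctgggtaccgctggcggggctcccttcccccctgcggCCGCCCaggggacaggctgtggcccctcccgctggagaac
The GC box was matched in all 3 stretches, 2 times in Plod1 and 1 time each in Serpinh1 and Pcolce2, and 32.7% of the 32851 promoters in the table hold it. The Plod1 stretch also held 1 match to TATAAA (12.4% of promoters) and 1 to CAGAC (42.2%), and the Serpinh1 stretch 1 match to ACGTG (16.6%) and 1 to CAGAC. GAANNTTC (6.69% of promoters) and CCAAT (33.8%) had no match in these 3 windows, and no 2 motifs overlapped in them. Of the entries not shown, P4ha3 held the GC box 5 times, P4ha2 2 times and Pcolce 1 time. Plod3, which rose in wild type lung, held no GC box and had 1 match to CCAAT. The GC box was thus neither common to all genes that moved nor limited to them. A match is a run of letters and was not tested as a binding site.

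Bleomycin against saline in FIZZ2 knockout lung gave 1 call among the 9 genes, the rise of Serpinh1, and 8 that did not pass. Over all genes 3.26% were called, 1.98% higher and 1.29% lower, and 60.6% of the called genes were higher (75.5% with array medians subtracted). The median change of the 9 genes was 0.32, against 0.01 over all genes. For 7 of the 9 genes the 3 bleomycin arrays lay above the 3 saline arrays, and for none below, where 27% of all genes were separated, 15.2% upward and 11.8% downward. The number of calls was 3 with knockout groups fitted alone, Plod1 (adjusted p = 0.0367) and Pcolce (0.0447) joining Serpinh1, and also 3 with array weights (0.0266 and 0.0418). It was 2 without wild type bleomycin replicate 1 (Plod1, 0.0241) or without knockout bleomycin replicate 1 (Bmp1, 0.0398).

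Serpinh1 had log2 values of 10.99, 11.09 and 11.22 in knockout bleomycin lungs, against 10.20, 10.44 and 10.37 in knockout saline lungs. The groups were apart, and the rise was 1.70-fold (0.77 ± 0.08, adjusted p = 0.000601). Plod1 had 7.71, 7.66 and 7.68 in knockout bleomycin lungs, against 7.15, 7.41 and 7.28 in knockout saline lungs, a change of 0.41 ± 0.11 (adjusted p = 0.0658). Pcolce had 10.57, 10.39 and 10.57 in knockout bleomycin lungs, against 10.14, 10.08 and 10.21 in knockout saline lungs, a change of 0.36 ± 0.13 (adjusted p = 0.143). For both, the arrays of the groups did not overlap although the test across all genes was not passed.

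P4ha3 had log2 values of 3.36, 3.59 and 3.45 in knockout bleomycin lungs, against 3.15, 3.10 and 3.20 in knockout saline lungs, and its change was 0.32 ± 0.12 (adjusted p = 0.19). All 6 values lay in the dim range of the array. Bmp1 was uneven, with 8.36, 8.65 and 8.95 in knockout bleomycin lungs, against 8.30, 8.30 and 8.34 in knockout saline lungs. Its lowest bleomycin array stood just above the saline arrays, and the change of 0.34 ± 0.13 did not pass (adjusted p = 0.185). Plod3 had 9.39, 9.40 and 9.39 in knockout bleomycin lungs, against 9.11, 9.15 and 9.26 in knockout saline lungs (0.22 ± 0.08, adjusted p = 0.165). Plod2 had 9.91 on all 3 knockout bleomycin arrays, against 9.75, 9.54 and 9.83 in knockout saline lungs (0.20 ± 0.09, adjusted p = 0.24). Both lysyl hydroxylases stood higher on every bleomycin array, by steps that did not pass.

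Pcolce2 had log2 values of 11.68, 11.13 and 11.35 in knockout bleomycin lungs, against 11.52, 11.58 and 11.78 in knockout saline lungs. The groups overlapped, and the change of -0.24 ± 0.17 did not pass (adjusted p = 0.497; 95% interval -0.61 to 0.12). P4ha2 had 8.91, 8.85 and 8.86 in knockout bleomycin lungs, against 8.65, 8.97 and 9.03 in knockout saline lungs. Its change was -0.01 ± 0.10 (adjusted p = 0.984), and the sign turned with array medians subtracted (0.03), without knockout saline replicate 2 (0.04) or 3 (0.07) and without knockout bleomycin replicate 2 (0.01).

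**Figure D2:**
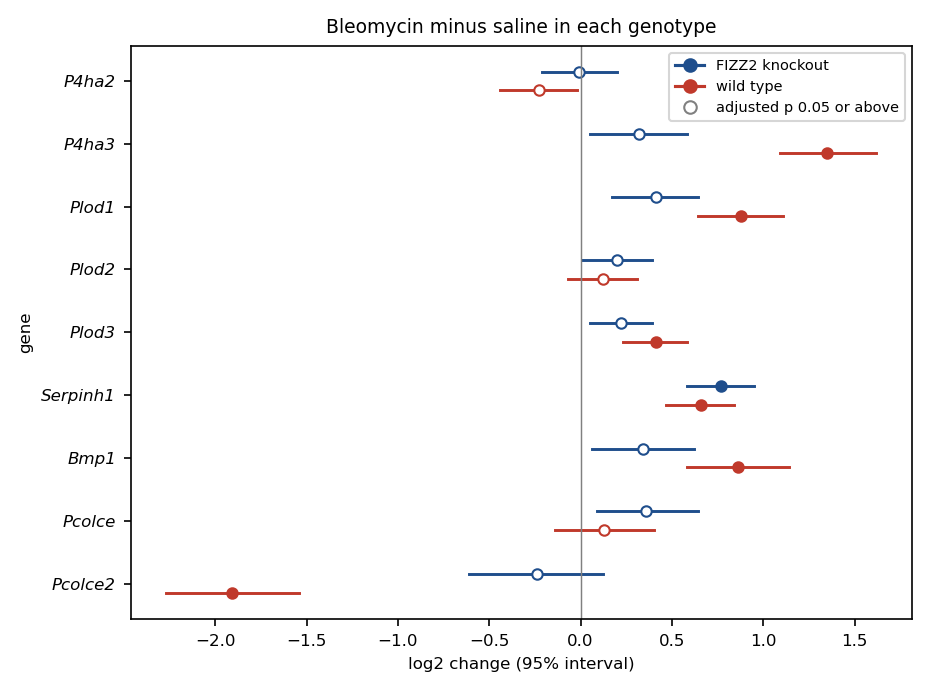
Log2 change of each gene with bleomycin (bleomycin minus saline, points) and its 95% interval from limma, in FIZZ2 knockout (blue) and wild type lungs (red); filled points have an adjusted p under 0.05 over all genes. Serpinh1 changed by 0.77 in knockout and 0.66 in wild type lungs, while Pcolce2 changed by -0.24 and -1.91.

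Whether the response depended on the genotype was tested as the knockout change minus the wild type change. Of the 9 genes 2 passed, Pcolce2 with a positive and P4ha3 with a negative difference, and 7 did not, where 5.02% of all genes were called (2.03% positive, 3% negative). The difference was 1.66 ± 0.24 for Pcolce2 (adjusted p = 0.00398), which changed by -0.24 in knockout and -1.91 in wild type lungs. For P4ha3 it was -1.04 ± 0.17 (adjusted p = 0.00698), with changes of 0.32 in knockout and 1.35 in wild type lungs. Both calls stood when any array was left out (adjusted p up to 0.0161 for Pcolce2 and 0.0217 for P4ha3).

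Plod1 (-0.47 ± 0.15, adjusted p = 0.0979) and Bmp1 (-0.52 ± 0.18, adjusted p = 0.119) had smaller changes in knockout lungs by differences that did not pass. Bmp1 passed without knockout bleomycin replicate 3, its highest knockout array (-0.67, adjusted p = 0.0324), and Plod1 with array weights (-0.51, adjusted p = 0.0271). For Serpinh1 the difference was 0.11 ± 0.12 (adjusted p = 0.635), with a 95% interval of -0.15 to 0.37. Plod3 had -0.19 ± 0.11 (adjusted p = 0.37), Plod2 0.09 ± 0.12 (0.738), Pcolce 0.23 ± 0.18 (0.485) and P4ha2 0.22 ± 0.14 (0.363). The change had the same sign in both genotypes for all 9 genes, with the reservation above for P4ha2 and Pcolce, and was smaller in size in the knockout for 6 of them. That count depends on the probe set. On their other probe sets Serpinh1 (0.73 in knockout, 0.76 in wild type lungs) and Plod2 (0.23, 0.26) changed less in the knockout. The third Bmp1 probe set changed more there (-0.22, -0.12).

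After bleomycin, knockout lungs were compared with wild type lungs directly; the wild type bleomycin arrays are those of the first comparison, so the 2 sets of calls are not independent. Of the 9 genes, 5 were lower in the knockout (P4ha3, Plod1, Plod3, Serpinh1 and Bmp1), 1 was higher (Pcolce2) and 3 did not pass. Over all genes 15.4% were called, 7.52% higher and 7.89% lower. The median difference was -0.34, against 0.03 over all genes. The arrays were apart for 8 of the 9 genes, 7 lower and 1 higher in the knockout, where 33.3% of all genes were separated, 15.4% lower and 18% higher.

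P4ha3 averaged 3.47 ± 0.11 in knockout and 4.61 ± 0.24 in wild type bleomycin lungs (SD, n = 3), a difference of -1.15 ± 0.12 (SE, adjusted p = 9.44e-05). Plod1 averaged 7.68 ± 0.03 in knockout and 8.48 ± 0.21 in wild type bleomycin lungs, 1.73-fold lower (-0.79 ± 0.11, adjusted p = 0.000496). Pcolce2 averaged 11.38 ± 0.28 in knockout and 9.74 ± 0.38 in wild type bleomycin lungs, 3.13-fold higher (1.65 ± 0.17, adjusted p = 6.7e-05). The knockout bleomycin values of P4ha3 were dim, so its gap is not ranked against those of the other genes. Serpinh1 averaged 11.10 ± 0.12 in knockout and 11.54 ± 0.07 in wild type bleomycin lungs (-0.44 ± 0.08, adjusted p = 0.00392). The differences of Bmp1 (-0.55 ± 0.13, adjusted p = 0.0124) and Plod3 (-0.34 ± 0.08, adjusted p = 0.0121) passed with all arrays. Without wild type bleomycin replicate 1 they were -0.46 for Bmp1 (adjusted p = 0.0539) and -0.28 for Plod3 (0.051), and neither passed. Bmp1 did not pass either without knockout bleomycin replicate 1 (-0.40, adjusted p = 0.0514) and with the bleomycin groups fitted alone (-0.55, 0.0534). Plod2 (-0.14 ± 0.09), P4ha2 (-0.12 ± 0.10) and Pcolce (-0.10 ± 0.13) did not pass (adjusted p = 0.341, 0.469 and 0.658).

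After saline, 1 of the 9 genes differed by genotype, Serpinh1, lower in the knockout, where 0.489% of all genes were called (0.297% higher, 0.192% lower). Serpinh1 averaged 10.33 ± 0.12 in knockout and 10.89 ± 0.02 in wild type saline lungs (SD, n = 3), 1.47-fold lower (-0.55 ± 0.08, SE, adjusted p = 0.0123). It missed the threshold with the saline groups fitted alone (adjusted p = 0.0517) and when knockout saline replicate 1 (0.0604) or replicate 3 (0.0531) was left out. The difference for Serpinh1 was thus of like size after saline (95% interval -0.74 to -0.37) and after bleomycin (-0.63 to -0.26), and the difference between its 2 responses is the 0.11 given above. The other genes had differences between -0.34 for P4ha2 (adjusted p = 0.193) and -0.02 for Pcolce2 (0.986), all below 0 though the signs of Pcolce2 and Bmp1 (-0.03) turned under other settings. The median was -0.22, against -0.02 over all genes. The arrays were apart for 6 of the 9 genes (P4ha2, Plod1, Plod2, Plod3, Serpinh1 and Pcolce), each lower in the knockout, where 16.7% of all genes were separated, 9.45% lower and 7.28% higher.

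**Figure D3:**
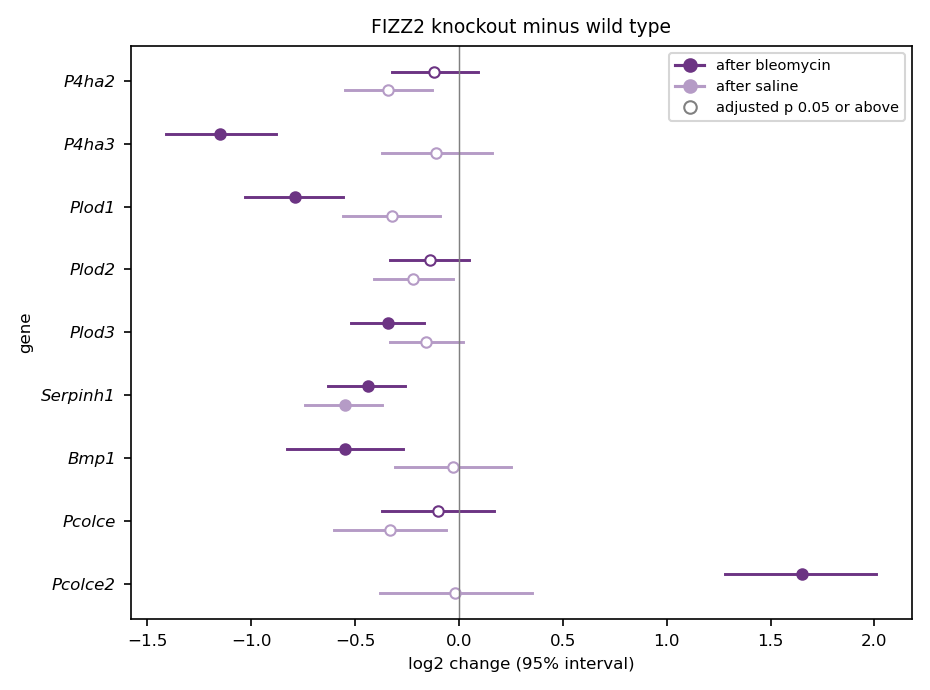
Log2 difference of each gene between FIZZ2 knockout and wild type lungs (knockout minus wild type, points) with its 95% interval from limma, after bleomycin (dark) and after saline (light); filled points have an adjusted p under 0.05 over all genes. Serpinh1 was lower in the knockout after both injections (-0.44 and -0.55), whereas P4ha3 (-1.15 and -0.11) and Pcolce2 (1.65 and -0.02) differed after bleomycin.

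Among the 15 probe sets, 5 genes had more than 1, and these were tested in a fit over all 34958 probe sets paired with 1 gene, of which 1.61% were called for bleomycin in the knockout, 21.4% in wild type and 2.44% for the difference between the responses. The Serpinh1 probe sets gave like results, with changes of 0.73 ± 0.12 in knockout (adjusted p = 0.00995) and 0.76 ± 0.12 in wild type lungs (0.000623) on the dimmer of them. After saline, that dimmer probe set was lower in the knockout by a step that did not pass (-0.41 ± 0.12, adjusted p = 0.283). The 3 probe sets of Bmp1 disagreed. Its second probe set had log2 values of 6.87, 6.71 and 6.59 in wild type bleomycin lungs, against 5.22, 5.13 and 5.11 in wild type saline lungs, a 2.97-fold rise (1.57 ± 0.21, adjusted p = 0.000288). In knockout lungs it had 5.39, 5.54 and 6.43 after bleomycin, against 5.15, 5.54 and 5.53 after saline, so that replicate 3 alone stood out (0.38 ± 0.21, adjusted p = 0.445), and its difference between the responses was -1.19 ± 0.30 (adjusted p = 0.0617). After bleomycin this second probe set was lower in knockout than in wild type lungs (-0.94 ± 0.21, adjusted p = 0.0161). The third Bmp1 probe set was dim (mean 4.28) and did not pass in either genotype (-0.22 in knockout and -0.12 in wild type lungs).

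For Plod1, the second probe set was dim too (mean 4.73) and had 0.08 ± 0.10 in knockout and 0.18 ± 0.10 in wild type lungs, neither passing (adjusted p = 0.805 and 0.243). The second Plod2 probe set had 0.23 ± 0.09 in knockout and 0.26 ± 0.09 in wild type lungs (adjusted p = 0.243 and 0.0594), and its wild type arrays were apart (9.31, 9.37 and 9.35 after bleomycin, against 9.25, 8.92 and 9.07 after saline). The second Pcolce probe set did not pass in either genotype (0.22 in knockout and 0.10 in wild type lungs). Which splice forms the probe sets detect was not analysed here.

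**Figure D4:**
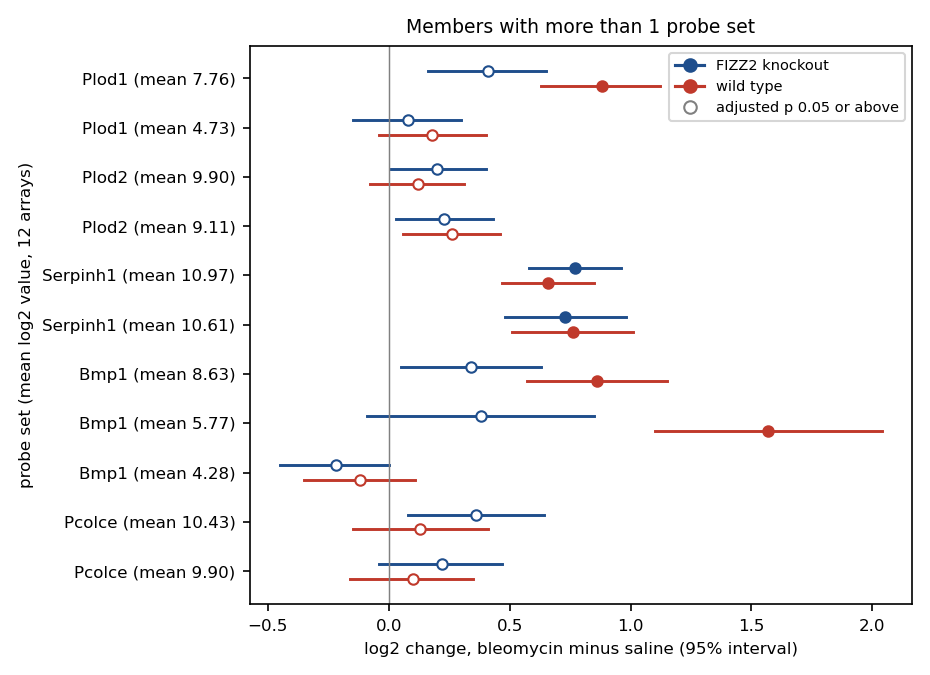
Log2 change with bleomycin (bleomycin minus saline) and 95% interval for every probe set of the 5 genes with more than 1, in FIZZ2 knockout (blue) and wild type lungs (red); rows give the mean log2 value over 12 arrays, and filled points have an adjusted p under 0.05 over all probe sets with 1 gene. The probe sets of Serpinh1 gave like changes, and those of Bmp1 spread from -0.12 to 1.57 in wild type lungs.

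The rest of the procollagen machinery was read from 30 other names, 28 of them measured. These cover the prolyl 3-hydroxylation complex, the collagen sugar transferases, other isomerases, N-proteinases, export factors and general chaperones; Adamts2 and Adamts14 were not analysed here. In wild type lung, 10 rose and 2 fell with bleomycin and 16 did not pass, with a median of 0.20. Over all genes 13.3% rose and 14.4% fell, with a median of -0.04. Colgalt1, which adds galactose to hydroxylysine, rose 1.63-fold (0.71 ± 0.08, adjusted p = 5.06e-05), and P3h1, a prolyl 3-hydroxylase, rose by 0.92 ± 0.13 (0.000232). P3h2, another prolyl 3-hydroxylase, named here after its values were seen, fell (-0.46 ± 0.14, adjusted p = 0.0236). Sec23a, a coat protein of vesicles that leave the endoplasmic reticulum, rose by 0.57 ± 0.10 (0.000828). P4hb, the beta subunit that completes the prolyl 4-hydroxylase, rose by 0.28 ± 0.07 (0.012), while P4ha1, the remaining alpha subunit, had -0.34 ± 0.16 and did not pass (0.129). Colgalt2, the second galactose transferase, fell by 1.14 on the log2 scale (SE 0.14, adjusted p = 6.65e-05). Colgalt2 had log2 values of 6.87, 7.34 and 7.07 in wild type bleomycin lungs, against 8.20, 8.32 and 8.19 in wild type saline lungs. The bleomycin arrays lay below the saline arrays for Colgalt2 and above them for Colgalt1.

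In knockout lung, limma called none of these 28 genes with bleomycin, where 3.26% of all genes were called. At an unadjusted p under 0.05, 4 were higher and 1 was lower, and the median was 0.11. The difference between responses passed for Colgalt2 alone, at 0.75 ± 0.20 (adjusted p = 0.0465), where 5.02% of all genes were called. After bleomycin, 8 of the 28 were lower and 1 was higher in the knockout, where 7.89% of all genes were lower and 7.52% higher. Among them were P3h1 (-0.88 ± 0.13, adjusted p = 9e-04), its partner Crtap (-0.59 ± 0.11, 0.00352), the isomerase Fkbp14 (-0.83 ± 0.10, 0.000281) and, as the higher 1, Colgalt2 (0.88 ± 0.14, 0.00126). After saline 1 differed, Fkbp14, lower in the knockout (-0.61 ± 0.10, adjusted p = 0.0209), where 0.489% of all genes were called. Fkbp14 had log2 values of 7.30, 7.40 and 7.48 in knockout saline lungs, against 7.84, 8.25 and 7.92 in wild type saline lungs, and the arrays of the genotypes did not overlap.

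The 11 fibrillar collagen chains, substrates of these enzymes, had a median change of 0.48 in knockout and 1.23 in wild type lungs, beside 0.32 and 0.41 for the 9 processing genes. In knockout lungs 4 chains rose and in wild type lungs 8, where 1.98% and 13.3% of all genes rose. Col1a1 changed by 1.17 ± 0.19 in knockout and 2.45 ± 0.19 in wild type lungs (difference -1.27 ± 0.27, adjusted p = 0.0205). Col3a1 changed by 1.14 ± 0.10 in knockout and 1.09 ± 0.10 in wild type lungs (difference 0.05 ± 0.14, adjusted p = 0.867). Col3a1, like Serpinh1, was also lower in knockout than in wild type lungs after saline (-0.55 ± 0.10, adjusted p = 0.0303).

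**Figure D5:**
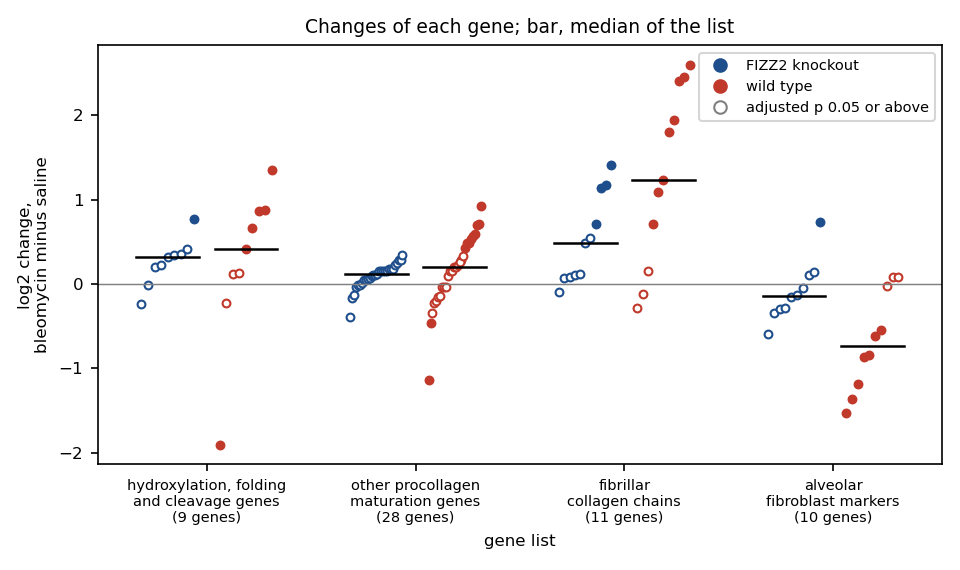
Log2 change with bleomycin (bleomycin minus saline) of each gene of 4 lists (points) and the median of the list (bar), in FIZZ2 knockout (blue) and wild type lungs (red); filled points have an adjusted p under 0.05 over all genes. The medians of the 9 hydroxylation, folding and cleavage genes were 0.32 in knockout and 0.41 in wild type lungs, and those of the 10 alveolar fibroblast markers -0.14 and -0.73.

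Markers of cell types moved in the same comparisons, where 3.26% of all genes were called in knockout and 27.7% in wild type lung. Of 10 alveolar fibroblast markers, 1 rose with bleomycin in the knockout and 7 fell in wild type lung, with Inmt at -1.36 ± 0.11 (adjusted p = 3.56e-06) and Fgfr4 at -1.53 ± 0.18 (4.08e-05) in wild type lung. Their mean centred level ran from 0.00 to 0.29 in knockout bleomycin lungs, against 0.14 to 0.24 in knockout saline lungs, and from -0.76 to -0.31 in wild type bleomycin lungs, against 0.15 to 0.25 in wild type saline lungs. As for Pcolce2, the wild type bleomycin arrays were the lowest, which also held for the markers of lung epithelium and endothelium given below. Of 9 measured adventitial fibroblast markers, 1 rose in the knockout, and 3 rose and 3 fell in wild type lung. Of 10 general and scar fibroblast markers, 1 rose in the knockout, and 6 rose and 1 fell in wild type lung; Cthrc1, a scar fibroblast marker, changed by 2.58 ± 0.27 in wild type lung (adjusted p = 1.84e-05). Of 10 macrophage markers, 6 rose in knockout and 8 in wild type lung.

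Markers of heart muscle, fat and mesothelium were read as well, beside the same 3.26% (knockout) and 27.7% (wild type) of all genes called with bleomycin. Of 12 cardiac muscle markers, 2 fell with bleomycin in the knockout and 12 in wild type lung. Their mean centred level ran from -1.25 to 0.68 in knockout bleomycin lungs, against 0.46 to 1.04 in knockout saline lungs, and from -1.30 to -0.78 in wild type bleomycin lungs, against 0.38 to 0.90 in wild type saline lungs. Of 7 measured adipocyte markers, 1 passed in each genotype, a fall, but their median change was -1.39 in the knockout (6 of 7 lower at an unadjusted p under 0.05) and -0.35 in wild type lung (1 of 7). Their mean centred level ran from -0.90 to 0.38 in knockout bleomycin lungs, against 0.02 to 1.65 in knockout saline lungs, and from -0.55 to -0.35 in wild type bleomycin lungs, against -0.50 to 0.35 in wild type saline lungs. Of 7 mesothelial markers, limma called 0 in the knockout (0 at an unadjusted p under 0.05) and 1, which rose, in wild type lung.

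The same lists were read between the genotypes, since after saline the 9 processing genes all had differences below 0 on their brightest probe sets. Limma called 0 of the 7 mesothelial markers (4 lower in the knockout at an unadjusted p under 0.05), with a median of -0.51. Their mean centred level ran from -0.53 to 0.03 in knockout saline lungs, against -0.07 to 0.40 in wild type saline lungs. It called 0 of the 7 adipocyte markers as well (2 higher at an unadjusted p under 0.05), with a median of 0.99 and 7 of 7 above 0. No marker of the other cell type lists passed after saline, where 0.489% of all genes were called. With so small a share, 0 calls in lists this short do not show that cell types were alike. After bleomycin, 1 mesothelial marker was lower in the knockout (5 of 7 at an unadjusted p under 0.05, median -0.48), and 1 adipocyte marker was higher (median -0.15). Of 10 alveolar fibroblast markers 7 were higher (median 0.62), and of 11 fibrillar collagen chains 7 were lower (median -0.92). Of 10 macrophage markers 4 were lower (median -0.42), as were 3 of 10 general and scar fibroblast markers, with 1 higher. Of 9 adventitial markers 3 were higher and 2 lower. Cardiac muscle markers were above 0 for 12 of 12 (median 0.89), and 1 passed (8 at an unadjusted p under 0.05). Among all genes 7.52% were called higher and 7.89% lower.

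Of the 10 markers of lung epithelium and endothelium, limma called 0 with bleomycin in the knockout (1 higher at an unadjusted p under 0.05) and 5, all lower, in wild type lung, with medians of -0.01 and -0.24. Of all genes, 3.26% were called in the knockout and 27.7% in wild type lung, where 14.4% were lower. Their mean centred level ran from 0.03 to 0.11 in knockout bleomycin lungs, against 0.03 to 0.08 in knockout saline lungs, and from -0.41 to -0.08 in wild type bleomycin lungs, against 0.02 to 0.12 in wild type saline lungs. After bleomycin, all 10 had differences above 0 between knockout and wild type lungs, and 2 passed, where 7.52% of all genes were called higher. The part of any of these lists in the changes of the processing genes was not tested.

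The genes most like the extremes of the set were taken by the smallest root mean square difference over the 12 arrays, each gene centred on its own mean. For P4ha3, whose own SD over the arrays was 0.63, these were Zfp423 (0.098), Cdc6 (0.108) and B4galt6 (0.117), with wild type changes of 1.21, 1.37 and 1.25. For Pcolce2, whose own SD was 0.85, these were Atp6v1c2 (0.148), Lpar3 (0.166) and Dpep1 (0.172). They changed by -0.22, -0.50 and -0.05 in knockout and by -1.63, -1.70 and -1.68 in wild type lungs. The 12 arrays fall in 4 groups, which all these genes share.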

How the data were processed

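Total RNA had been labelled as biotinylated cRNA for the arrays, per the labels' protocols. The deposited table holds 1 log2 value per probe set and array. As tools, the submitters' processing notes list RMA, affy and limma, with no versions or order. RMA as usually run corrects background and quantile-normalizes, which assumes like distributions on every array, and it gives no detection call, so dimness was judged from the level. No genome build is given in the sources used here.

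Probe sets paired with 1 gene (34958) were named through the Entrez identifier, and each of the 18194 genes was represented by its brightest probe set on average. All 12 arrays entered 1 limma fit (limma 3.58.1, R 4.3.3) with a mean per group, no block and eBayes without trend; no filter and no minimum fold was set. The contrasts set bleomycin against saline within a genotype, took the difference of these changes, and set knockout against wild type after either injection. A gene was called at an adjusted p under 0.05 (Benjamini-Hochberg over all genes). The same fit on all probe sets with 1 gene gave the values of every probe set. The procedure was also run on simulated data with independent noise, where changes were added to the wild type bleomycin group alone. That run did not cover changes in knockout lung, and no result above rests on it.

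The members and gene lists were chosen with earlier results of these data known. Named beside the members are up to 4 genes per list with the smallest p, with P4hb, P4ha1, Adamts2, Col1a1 and Col3a1 in any contrast, and the 3 genes most like each of the members with the largest and the smallest wild type change, clone and model names left out. Same-numbered samples did not as a rule deviate together (correlations of deviations from -0.41 to 0.40 in 18 pairs, 3 over 0.1), so the numbers were not taken as pairs. The highest, 0.40, was for replicate 3 of wild type saline and wild type bleomycin. Figures were drawn with matplotlib 3.10.9. Alternatives are in the closing section.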

Additional observations from a re-analysis of the deposited data

Results flagged for a closer look

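The bleomycin response of 2 genes differed between the genotypes by a test of the difference itself, the knockout change minus the wild type change in limma. For Pcolce2 the difference was 1.66 ± 0.24 on the log2 scale (SE, n = 3 arrays per group, adjusted p = 0.00398), and for P4ha3 it was -1.04 ± 0.17 (adjusted p = 0.00698). All 3 knockout bleomycin arrays stood above the wild type bleomycin arrays for Pcolce2 and below them for P4ha3. Groups of 3 arrays are too small for a test of single outlying arrays.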

How the results depend on the processing

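Of 16 calls among the 9 genes and 5 comparisons, 13 held without each of the 12 arrays in turn; the other calls, given in the report, were those of Plod3 and Bmp1 after bleomycin and of Serpinh1 after saline. Of the 9 alternatives that left no array out, a few moved the count of called genes of the set by over 1.5 times. For bleomycin in the knockout the count was 3 with the groups of the contrast alone and 3 with array weights, against 1 as reported, and 1 to 2 without single arrays. For the difference between the responses it was 1 with genes of a mean under 5 left out, which removes P4ha3, against 2. For knockout against wild type after saline limma gave 0 with the saline groups alone (5 at an unadjusted p under 0.05) and 3 with array weights, against 1, and 0 to 1 without single arrays. Signs turned for P4ha2 in the knockout response (0.03 with array medians subtracted; -0.12 to 0.07 without single arrays). After saline they turned for Bmp1 (0.13 as the mean of its probe sets; -0.09 to 0.01 without single arrays) and Pcolce2 (0.01 with quantile normalization repeated; -0.10 to 0.04 without single arrays). Without single arrays the change of Pcolce ran from -0.01 to 0.25 with bleomycin in wild type lung and from -0.21 to 0.04 for knockout against wild type after bleomycin.

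The number of all genes called was 1286 with array weights, against 594, for the knockout response. It was 1888 with array weights, against 914, for the difference between the responses. After saline it was 37 with the saline groups alone and 1105 with array weights, against 89. Without single arrays it ran from 211 to 796 for the knockout response, 380 to 1052 for the difference, 1653 to 3138 (2804 as reported) after bleomycin and 24 to 112 after saline. The array weights of the wild type saline group were 5.13, 0.339 and 0.649, so with weights that group rested largely on replicate 1. The share of higher calls was 50.7% with array medians subtracted and 51.2% with quantile normalization repeated, against 40.4%, for the difference, and 48.1% with array medians subtracted, against 60.7%, after saline. Also after saline it was 41.8% with every probe set tested by itself and 47.1% with array weights. Without single arrays this share ran from 26.6% to 43.3% for the difference and from 37.9% to 62% after saline. With the replicate number as a block (replicate block), 6, 1, 2, 6 and 1 genes of the set were called in the order of the report, as without it, and 601 genes passed for the difference; the samples share only a number. The difference could not be fitted with the groups of 1 contrast alone. The causes of these shifts were not tested. P4ha3 and the dim probe sets of Plod1 and Bmp1 lie where signal over background limits the changes that can be seen.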
